A study of Mus musculus with 14 samples.

Results

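The 31 genes described here encode enzymes of cholesterol and fatty acid synthesis, the transcription factors that switch these enzymes on, and proteins that regulate or carry sterols. They were chosen by name, as sterol and lipid synthesis genes under control of the SREBP factors. No cut on a measured value was used, but earlier results of these data were known. All 31 were found among the 48795 genes of the count table, and all 31 passed the filter on low counts that left 16408 genes to test. By role they fall into 7 genes of the mevalonate steps, 11 of the squalene and sterol steps, 4 regulators and sterol carriers, 5 genes of fatty acid synthesis and NADPH supply, and 4 desaturases.

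Cells build cholesterol from acetyl-CoA through mevalonate, isoprenoids and squalene, and build fatty acids from the same acetyl-CoA with NADPH as the reducing agent. SREBP2, from Srebf2, mainly drives the sterol genes, and SREBP1, from Srebf1, mainly drives the fatty acid genes. Both precursors sit in the endoplasmic reticulum, where INSIG proteins hold them back when sterols are plentiful, and are cut and released to the nucleus when sterols run low. In skin, lipids of this pathway feed the epidermal barrier and the sebaceous glands, and in lung they feed surfactant.

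RNA was sequenced from fibroblasts that grew out of explants of lung or dorsal skin from male C57BL/6J mice, wild type or Rel-/- (called Rel-null below), aged 8 to 10 weeks. All cultures were unstimulated, on tissue culture plastic, and harvested after 14 days, so no group had a treatment the others lacked. The product of Rel is c-Rel, a subunit of the NF-kappaB transcription factors. Wild-type lung had 5 libraries (1, 23, 3, 4 and 5), Rel-null lung 4 (7, 8, 9 and 10), wild-type skin 2 (11 and 22) and Rel-null skin 3 (18, 19 and 20). Nothing in the labels ties a library to an animal, so each p-value reflects only how far these libraries scatter, which may be technical. Explant outgrowths can hold several cell types, and in bulk RNA a smaller number of cells of a type cannot be told apart from less RNA per cell.

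Wild-type skin 22 held 2663437 counts, and each of the other libraries held between 12780350 and 30987933. In 4 libraries between 3.37% and 11.5% of expressed genes had 0 counts (wild-type lung 4, wild-type skin 11, Rel-null skin 18 and Rel-null lung 7), while the other 10 had 0.728% or less. Rel was at 1.10 CPM (counts scaled to the raw library total) in wild-type lung 4 and at 6.27 to 17.3 in the other wild-type libraries. It was at 0.0349 to 4.06 CPM in 5 Rel-null libraries but at 9.42 and 9.47 in the libraries labelled Rel-null skin 19 and 20, which goes against their label. The labels do not say which part of the gene the allele lacks. The label of Rel-null lung 10 names skin in 1 field and lung in the title and source. Although the mice are described as male, Xist was at 64.5 CPM in wild-type lung 1 and 732 in wild-type skin 22. Fibroblast markers summed to 11105 CPM or more in every library. Leukocyte and macrophage markers summed to between 6013 and 26295 CPM in lung and at most 191 in skin. Keratinocyte markers summed to between 1080 and 2792 CPM in Rel-null skin, at most 51.0 in wild-type skin and at most 25.7 in lung. The 10 sebocyte markers summed to 131 to 338 CPM in lung and 126 to 204 in skin, ranges that overlap. Soat1, at 115 to 335 CPM, made up most of that sum. Dgat2l6 was at 0 in every library, while Mogat2 reached 11.6 CPM in Rel-null skin 18 and Krt79 1.80 in the library labelled Rel-null skin 20.

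Upstream sequences are shown for 4 genes that were called higher in skin, as examples of the motifs marked in them. The marks in Lss, Nsdhl and Fasn are CCAAT boxes only, and a sterol response element is marked only in Hmgcs1. The 4 genes were picked among called genes, so they do not show whether motifs go with level. RefSeq promoter windows of GRCm38.p6, from 250 bases before the start site to 50 after it, were found for 24 of the 31 genes, in 30 windows. Printed 5′ to 3′ are the 250 bases before the start, with capitals marking a sterol response element (TCACNCCAC), an E-box (CACGTG) or a CCAAT box (CCAAT) on either strand, so that ATTGG is a CCAAT box on the other strand.
Hmgcs1, chr13:119690101-119690350, plus strand: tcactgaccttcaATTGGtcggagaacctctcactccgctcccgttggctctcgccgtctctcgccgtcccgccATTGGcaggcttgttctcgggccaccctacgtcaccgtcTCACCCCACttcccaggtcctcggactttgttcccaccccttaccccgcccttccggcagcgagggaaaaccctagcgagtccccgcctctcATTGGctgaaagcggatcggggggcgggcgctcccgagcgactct
Lss, chr10:76531355-76531604, plus strand: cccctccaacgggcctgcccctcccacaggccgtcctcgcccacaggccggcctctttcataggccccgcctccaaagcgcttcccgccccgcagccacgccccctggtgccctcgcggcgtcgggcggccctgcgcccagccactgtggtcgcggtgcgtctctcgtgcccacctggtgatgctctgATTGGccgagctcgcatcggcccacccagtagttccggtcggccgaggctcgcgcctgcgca
Nsdhl, chrX:72918271-72918520, plus strand: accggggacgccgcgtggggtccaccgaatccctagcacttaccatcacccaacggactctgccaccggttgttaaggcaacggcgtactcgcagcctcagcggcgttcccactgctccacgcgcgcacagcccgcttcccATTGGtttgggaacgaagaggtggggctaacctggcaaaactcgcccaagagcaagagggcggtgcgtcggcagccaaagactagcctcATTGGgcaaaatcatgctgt
Fasn, chr11:120824548-120824797, minus strand: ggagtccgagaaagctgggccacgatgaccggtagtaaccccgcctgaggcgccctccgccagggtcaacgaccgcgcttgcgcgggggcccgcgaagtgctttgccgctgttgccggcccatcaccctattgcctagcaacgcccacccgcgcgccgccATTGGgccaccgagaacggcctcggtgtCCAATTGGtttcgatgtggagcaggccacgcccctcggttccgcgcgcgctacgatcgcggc

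The sterol response element was found in 1 of the 30 windows, that of Hmgcs1, where TCACCCCAC starts 137 bases before the start site, and in 1.24% of all 32851 promoter windows. The E-box was in 4 of the 30 windows, of Dhcr7, Sc5d, Hsd17b7 and Insig1, and in 7.15% of all windows and 9.5% of those of tested genes. CCAAT was in 21 of the 30 windows, against 37.4% of all windows and 36.9% of those of tested genes. All 9 sterol step genes with a window held at least 1 CCAAT, in 9 of their 11 windows. The GC box GGGCGG was in 22 of the 30 windows, against 35.7% and 59.2%. No motif of these 4 was found in the windows of Elovl6 and Acaca, or in the Pmvk window that starts at chr3:89459321. The window of Mvk, which was not called between tissues, held 5 CCAAT, and that of Acat2, called higher in skin, held none. Matches can overlap, as where CCAAT on both strands shares bases in Fasn, and a match is a description of letters only.

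Compared per transcript length, in TPM, the delta-9 desaturase Scd2 was the most abundant of the 31 in both tissues, with a median of 346 TPM over the 9 lung libraries and 695 over the 5 skin libraries. In lung it was followed by the delta-5 desaturase Fads1 (179 TPM), the stearoyl-CoA desaturase Scd1 (167), the ATP citrate lyase Acly (110) and the malic enzyme Me1 (108). In skin the next were Scd1 (470.5 TPM), Acly (290.3), Insig1 (180.1) and the lanosterol demethylase Cyp51 (170.5). Fdps, the farnesyl diphosphate synthase, was the lowest in both tissues, at 1.92 and 5.20 TPM. Its 1217 counts over all libraries are few, and it shares exons on the same strand with the annotated gene Gm43738, which had 0 counts. How reads in shared exons were assigned is not given in the sources used here, and that also touches Fdft1, Cyp51 and Srebf1, which overlap a gene on the opposite strand, and Tm7sf2, which overlaps Vps51 on the same strand.

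**Figure D1:**
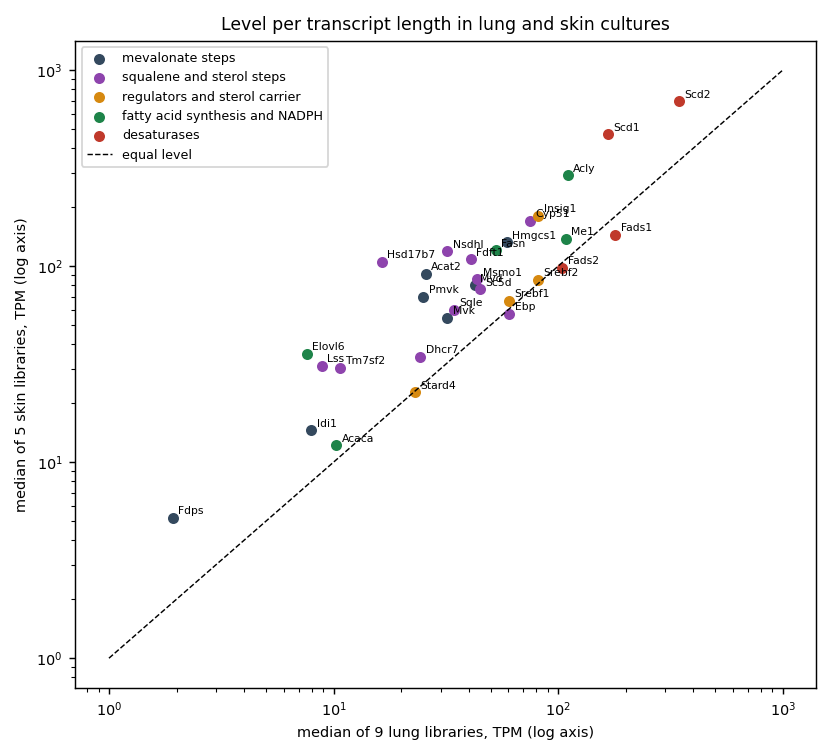
Median level of each of the 31 genes in the 9 lung libraries (x axis, TPM, log axis) and the 5 skin libraries (y axis, TPM, log axis), coloured by role, with a dashed line at equal level. Most points lie above the line, Fads1 lies below it (179 TPM in lung, 144 in skin), and Scd2 is the highest on both axes.

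The study's groups allow skin to be compared with lung, and it is the comparison in which genes of the set were called. Averaged over the genotypes, 10 of the 31 genes were higher in skin and none lower at an adjusted p under 0.05, in edgeR's quasi-likelihood test adjusted over all genes. Of all genes tested, 10.4% were called in this comparison and 4.26% were called higher in skin. The 31 genes together took 0.231% to 0.327% of the counts in the lung libraries, and in skin 0.757% and 0.352% (wild type 11 and 22) and 0.418%, 0.800% and 0.618% (Rel-null 18, 19 and 20). On these raw counts every skin library was above every lung library. On TMM-scaled totals, used for all CPM values below, the summed level of wild-type skin 22 was 3002 CPM, inside the lung range of 2200.3 to 3916, and the other 4 skin libraries were at 4006 or more. Of the 31, 27 were higher and 4 lower in skin, with a median log2 fold change of 0.84 against -0.07 over all genes. The genes called were Acat2 and Hmgcs1 of the mevalonate steps, Lss, Cyp51, Nsdhl and Hsd17b7 of the sterol steps, Acly, Fasn and Elovl6 of fatty acid synthesis, and Scd1. Leaving out wild-type skin 11 or the 4 libraries with the most genes at 0 leaves 1 wild-type skin library. Leaving out the libraries labelled Rel-null skin 19 and 20 leaves 1 Rel-null skin library. No count is given for these fits, which cannot show whether the calls hold. On raw totals instead of TMM-scaled totals the median of all genes moved from -0.07 to 0.09, and 15 of the 31 were called, all higher. The share of all genes called on raw totals is not given here.

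**Figure D2:**
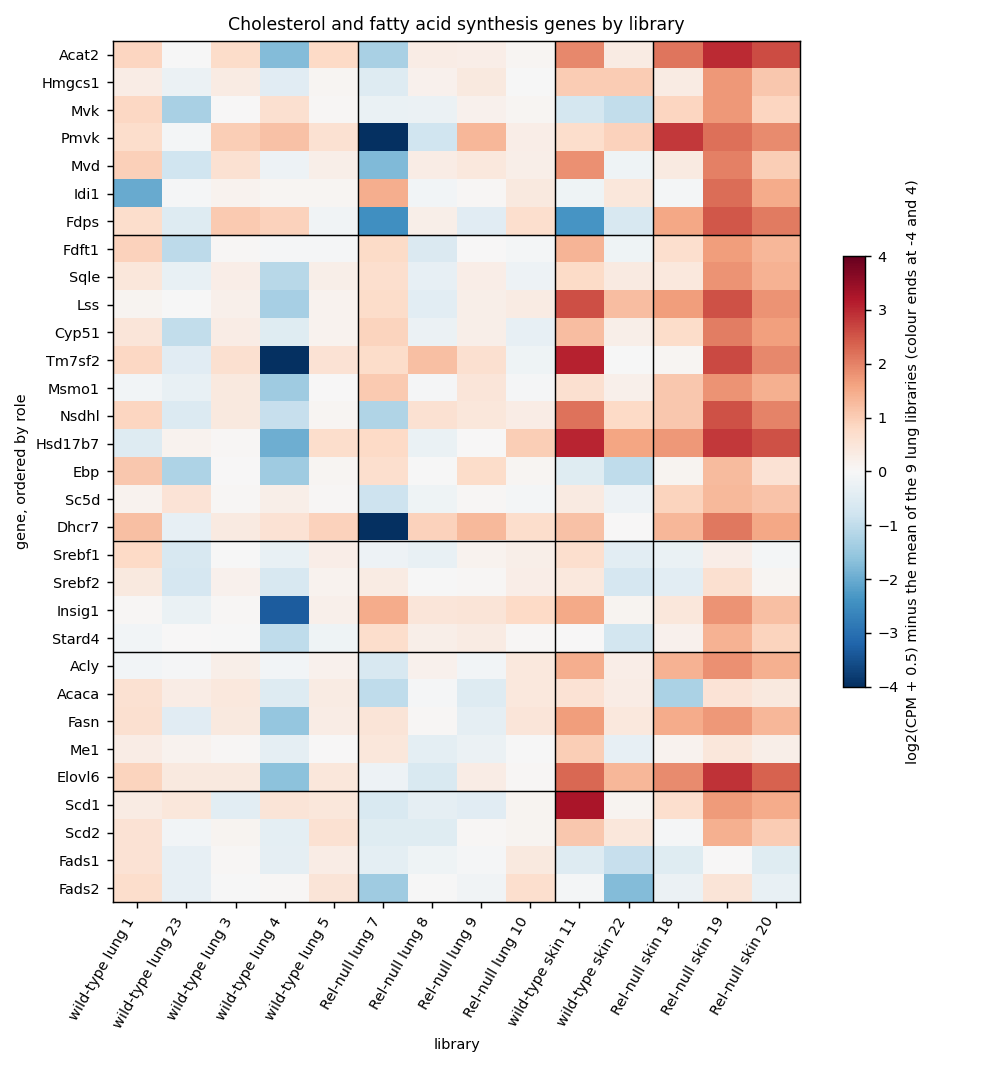
Level of each gene (rows, ordered by role, black lines between roles) in each library (columns, black lines between groups), as log2(CPM + 0.5) minus the mean of the 9 lung libraries. Red cells fill most of the skin columns, above all in the library labelled Rel-null skin 19, while the rows of Srebf1, Srebf2, Fads1 and Fads2 stay pale or turn blue.

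In the mevalonate steps, 2 of 7 genes rose, with a median of 1.06. Hmgcs1, the cytosolic HMG-CoA synthase, was at 57.8 to 109 CPM over the 9 lung libraries (median 85.9) and at 166 and 168 in wild-type skin and 103, 277 and 174 in Rel-null skin. Rel-null skin 18 fell inside the lung range and the other 4 skin libraries above it. The rise was 1.06 ± 0.24 (SE; adjusted p = 0.00822), and it ranged from 0.65 to 1.23 over 24 alternative fits. Acat2, the cytosolic acetoacetyl-CoA thiolase at the entry of the pathway, rose by 1.84 ± 0.41 (adjusted p = 0.00828), from 5.01 to 32.7 CPM in lung to 22.4 to 146 in skin. Of the kinases and the decarboxylase that follow, Pmvk differed by 1.17 ± 0.72, Mvd by 1.08 ± 0.44 and Mvk by 0.10 ± 0.33, none past the threshold (adjusted p = 0.378, 0.145 and 0.936). The isomerase Idi1 differed by 0.65 ± 0.55 and Fdps by -0.04 ± 0.95. Rel-null lung 7 had 0 counts of both Pmvk and Fdps, the only zeros among the 31 genes.

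In the squalene and sterol steps, 4 of 11 genes rose and 10 of 11 were higher in skin, with a median of 0.93. Lss, the lanosterol synthase that closes squalene epoxide into the first sterol (GRCm38, chr10:76531588-76557138), was at 28.8, 27.0, 31.1, 10.6 and 30.0 CPM in wild-type lung 1, 23, 3, 4 and 5, and at 45.5, 19.8, 31.6 and 34.1 in Rel-null lung 7, 8, 9 and 10. In skin it was at 165 and 64.0 CPM in wild-type 11 and 22 and at 86.5, 162 and 96.0 in Rel-null 18, 19 and 20. Every skin library lay above every lung library, and the rise was 3.97-fold (log2 1.99 ± 0.30, adjusted p = 0.000403).

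Hsd17b7, the 3-ketosteroid reductase of the demethylation steps (chr1:169949535-169969241), was at 18.1, 28.9, 27.0, 6.31 and 42.9 CPM in wild-type lung, and Rel-null lung had 45.3, 21.5, 26.3 and 51.2. It was at 219 and 78.4 in wild-type skin and 87.8, 189 and 153 in Rel-null skin. The tissues again did not overlap, and the rise was the largest of the 31, at 4.90-fold (2.29 ± 0.38, adjusted p = 0.000836). Nsdhl, which works just before Hsd17b7 in the demethylation steps, rose by 1.69 ± 0.38 (adjusted p = 0.00801). In lung Nsdhl was at most at 43.5 CPM, with wild-type skin 22 at 42.2 just inside that range and the other skin libraries at 50.8 or more. The rise of Cyp51 was 1.09 ± 0.30 (adjusted p = 0.0279). It alone of these 4 calls was lost in alternative fits that left at least 2 libraries in each group, so it is the least stable.

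The genes just outside the threshold included Sc5d, the sterol C5 desaturase (0.62 ± 0.20, adjusted p = 0.0557), the squalene epoxidase Sqle (0.86 ± 0.29, 0.0696), the C4 methyl oxidase Msmo1 (0.82 ± 0.27, 0.0698) and the squalene synthase Fdft1 (0.93 ± 0.33, 0.0878). Tm7sf2, a sterol C14 reductase, differed by 1.67 ± 0.71 (adjusted p = 0.163), with 85.2 CPM in wild-type skin 11 and 9.60 in wild-type skin 22. Dhcr7, the last reductase before cholesterol, differed by 0.62 ± 0.67, with 0.0607 CPM in Rel-null lung 7 against 21.2 or more in the other lung libraries. The sterol isomerase Ebp was the 1 gene of this role with a lower value in skin, at -0.20 ± 0.38 (adjusted p = 0.863).

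The transcription factors themselves did not pass the test. Srebf1 was at 196, 71.3, 109.5, 89.7 and 133 CPM in wild-type lung, and Rel-null lung had 97.5, 90.9, 123 and 131. The levels in skin were 178 and 82.6 in wild type, and 91.7, 133 and 105 in Rel-null skin. Every skin value fell inside the lung range, and the difference was 0.06 ± 0.26 (adjusted p = 0.964). Srebf2 was at 221, 105, 188, 107 and 184 CPM in wild-type lung, and Rel-null lung had 209.5, 166, 173 and 204. In skin it was at 224 and 104 in wild-type skin and 125, 261 and 176 in Rel-null skin. The tissues overlapped over almost their whole range, with a difference of 0.01 ± 0.25. These are RNA levels, and cleavage of the proteins was not measured.

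Insig1, which retains the SREBP precursors and is itself an SREBP target, was at 71.9, 57.6, 70.6, 6.35 and 79.2 CPM in wild-type lung, and Rel-null lung had 194, 96.8, 99.6 and 120.3. In skin it was at 199 and 73.9 in wild type and 93.8, 241 and 159 in Rel-null. The skin range overlapped that of Rel-null lung, and the difference between tissues was 0.82 ± 0.43 (adjusted p = 0.281). Stard4, a sterol carrier, differed by 0.23 ± 0.27.

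Of the 5 genes of fatty acid synthesis and NADPH supply, all were higher in skin and 3 rose, with a median of 1.23. Acly, which makes cytosolic acetyl-CoA for both pathways, was at 165, 173, 207, 166 and 201 CPM in wild-type lung, and Rel-null lung had 113, 198, 164 and 240.0. The levels in skin were 482 and 215 in wild type, and 468, 637 and 473 in Rel-null skin. Wild-type skin 22 was below Rel-null lung 10, and the other 4 skin libraries were above all of lung. The rise was 2.38-fold (1.25 ± 0.22, adjusted p = 0.00146).

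Elovl6, which lengthens the product of fatty acid synthase (chr3:129532355-129638495), was at 26.7, 18.9, 18.6, 4.21 and 19.5 CPM in wild-type lung, and Rel-null lung had 12.3, 9.08, 17.5 and 14.7. It was at 72.0 and 36.8 in wild-type skin and at 53.9, 107 and 75.0 in Rel-null skin. No skin library overlapped lung, and the rise was 4.27-fold (2.09 ± 0.36, adjusted p = 0.00124). Fasn, the fatty acid synthase, rose by 1.23 ± 0.31 (adjusted p = 0.0180), from 50.1 to 232 CPM in lung to 198 to 499 in skin. Acaca, the acetyl-CoA carboxylase between Acly and Fasn, differed by 0.22 ± 0.32, and Me1 by 0.36 ± 0.23 (adjusted p = 0.791 and 0.390).

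Of the 4 desaturases 1 rose, with a median of 0.22. Scd1 was at 291, 324, 175, 336 and 317 CPM in wild-type lung, and Rel-null lung had 152, 182, 171 and 253. In skin it was at 2235 and 252 in wild type and 371, 771 and 659 in Rel-null. Wild-type skin 11 was far above all others, and wild-type skin 22 was inside the lung range. Scd1 rose 3.69-fold (1.88 ± 0.36, adjusted p = 0.00268), but without wild-type skin 11, which leaves 1 wild-type skin library, the difference was 0.73. That library also held the adipocyte genes Plin1 (129 CPM), Adipoq (36.9) and Cfd (18.9), which were at 0.320 or less in every other library, and Fabp4 at 885 against at most 94.9 elsewhere. The part of these in the Scd1 value was not tested. Scd2 differed by 0.84 ± 0.26 (adjusted p = 0.0517). The polyunsaturated fatty acid desaturases were lower in skin without passing the test, Fads1 by -0.53 ± 0.22 (adjusted p = 0.145) and Fads2 by -0.40 ± 0.34 (adjusted p = 0.561).

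**Figure D3:**
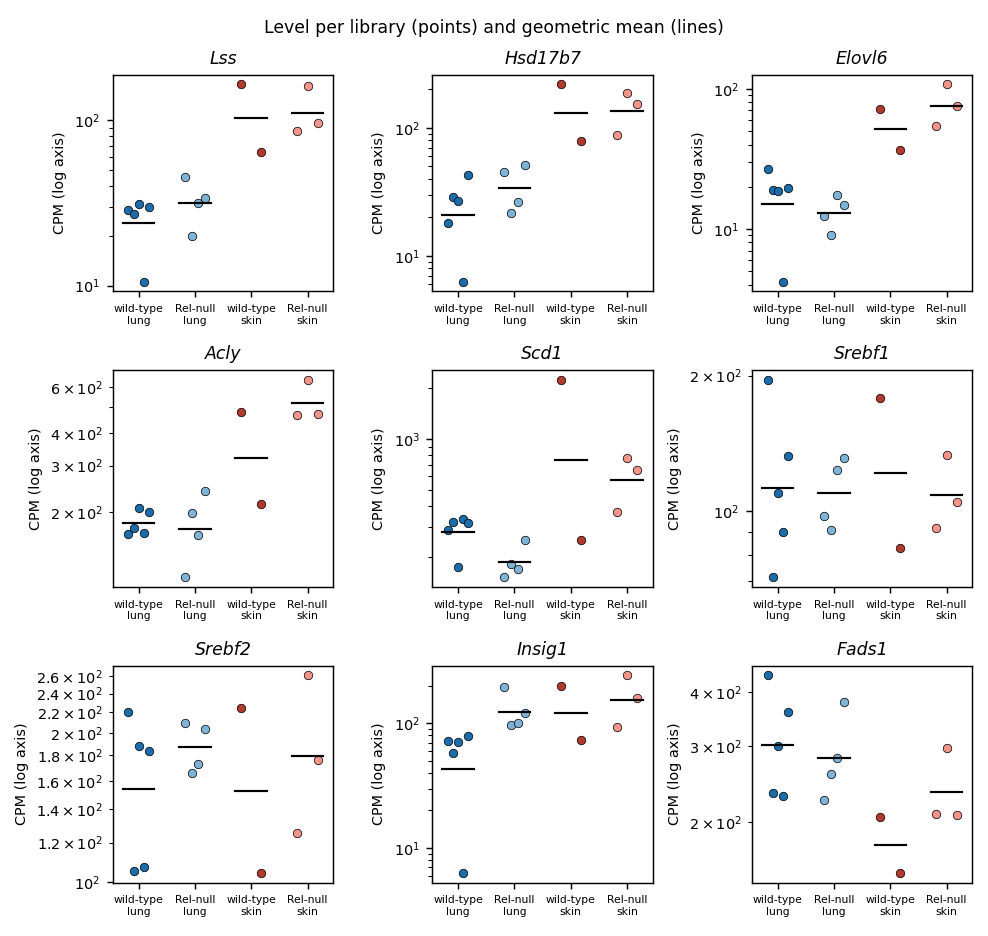
CPM on TMM-scaled totals (y axis, log axis, own scale per panel) of 9 genes in each library (points) by group (x axis), with the geometric mean as a line. Lss, Hsd17b7 and Elovl6 do not overlap between lung and skin, Scd1 has 1 wild-type skin library at 2235 CPM, and Srebf1 and Srebf2 overlap throughout.

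Libraries of all 9 lung and all 5 skin cultures did not overlap for 3 of the 31 genes, Lss, Hsd17b7 and Elovl6, all higher in skin. Over all genes, 1.79% were without overlap and higher in skin, and 3.03% lower. Leukocyte and macrophage markers differed with tissue far more: 11 of 12 were called lower in skin, and their summed level did not overlap between tissues. Keratinocyte markers were called higher in 7 of 11 tested, and Krt5 was at 0 in all lung libraries. The part of these cells in the tissue differences was not tested.

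The tissue comparison was then made within each genotype, where the libraries compared are separate. Both comparisons come from 1 fit and share its estimate of spread, filter and scaling. In wild type, 3 of 31 genes rose, against 2.97% of all genes called and 0.902% called higher: Lss (2.17 ± 0.43, adjusted p = 0.00969), Hsd17b7 (2.60 ± 0.54, 0.0128) and Scd1 (2.11 ± 0.51, 0.0348). Their median was 0.59 with 24 higher and 7 lower, against -0.13 over all genes. In Rel-null cultures 6 of 31 rose, against 5.05% of all genes called and 1.82% called higher. These were Acly (1.56 ± 0.30, adjusted p = 0.00557), Sc5d (1.34 ± 0.27, 0.00669), Elovl6 (2.55 ± 0.51, 0.00685), Acat2 (2.69 ± 0.58, 0.0115), Lss (1.81 ± 0.42, 0.0190) and Hsd17b7 (1.99 ± 0.53, 0.0395). The median was 1.17 with 28 higher and 3 lower, against -0.01 over all genes.

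Lss and Hsd17b7 were called in both genotypes, which is 66.7% of the wild-type and 33.3% of the Rel-null calls. The shares over all genes, for these calls and for the signs that follow, are not given here. This overlap is therefore not read as particular to the set. A total of 22 genes were higher in skin in both genotypes, 1 (Fads1) was lower in both, and 8 had opposite signs: Mvk, Fdps, Ebp, Sc5d, Srebf1, Srebf2, Stard4 and Fads2. In wild type 5 genes were without overlap and higher in skin, Hmgcs1, Lss, Hsd17b7, Acly and Elovl6 (7.12% of all genes), and 2, Fdps and Fads1, were lower (10.7%). In Rel-null 14 were without overlap and higher (11.6% of all genes) and none lower (8.54%). The calls rest on few skin libraries. Leaving out wild-type skin 11, the 4 libraries with the most genes at 0 or the Xist-positive libraries leaves 1 wild-type skin library. No count of calls is given for those fits, which cannot show whether the wild-type calls hold. Scd1 in wild type was -0.22 without wild-type skin 11. In Rel-null, 3 genes were called without the library labelled skin 19 and 10 without lung 7. The share of all genes called in these fits is not given here. Leaving out the libraries labelled skin 19 and 20 together leaves 1 Rel-null skin library, so no count is given for that fit.

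**Figure D4:**
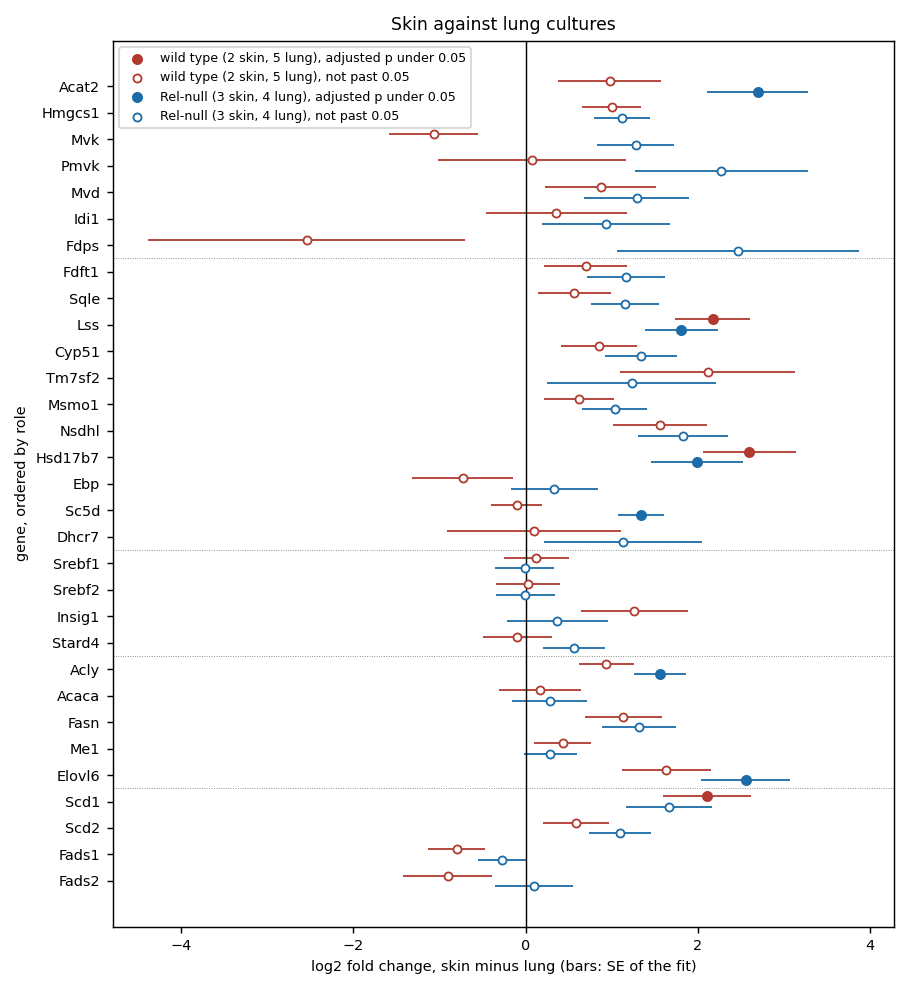
Log2 fold change, skin minus lung (x axis), of each gene (y axis, ordered by role, dotted lines between roles) in wild type (red) and Rel-null (blue), with the SE of the fit as bars and filled points at an adjusted p under 0.05. Lss and Hsd17b7 are filled in both genotypes, while Mvk and Fdps each lie on opposite sides of 0. The bars of Fdps are wide, and it had 1 and 4 counts in wild-type skin 11 and 22.

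The other comparison asks what loss of Rel changed. In lung, no gene of the 31 passed edgeR's test (smallest adjusted p = 0.781), and 0 of all genes did. At an unadjusted p under 0.05 there was 1, Insig1, against 6.31% of all genes. DESeq2 and limma-voom also called none of the 31, against 0.311% and 0.0366% of all genes. Of the 31, 15 were higher and 16 lower in Rel-null lung, with a median of -0.03 against -0.08 over all genes. By role, 9 of 11 sterol step genes had higher and all 4 desaturases lower values, with role medians of 0.25 and -0.33. Markers of other cells also differed between these groups without being called. All 9 lung epithelium markers tested were lower in Rel-null lung, with sums over the 12 listed of 26.5 to 188 CPM in wild type and 9.10 to 54.1 in Rel-null. Leukocyte and macrophage markers were higher in 10 of 12, at 6013 to 21294 CPM against 7689 to 26295. Proliferation markers were higher in 7 of 12 and lower in 5, at 362 to 519 CPM against 230.1 to 679, with Mki67 and Top2a lower at an unadjusted p under 0.05. The part of these in the lung genotype values was not tested.

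Insig1 differed most, by 1.16 ± 0.52 (unadjusted p = 0.0404, adjusted p = 0.781 by edgeR). The values listed above show every Rel-null lung library at 96.8 CPM or more and every wild-type lung library at 79.2 or less, with wild-type lung 4 far below at 6.35. Without wild-type lung 4 the difference was 0.91, and without the 4 libraries with the most genes at 0 it was 0.62. Stard4 was the other gene without overlap, at 35.6, 39.3, 38.2, 19.0 and 34.5 CPM in wild-type lung, and Rel-null lung had 64.0, 45.7, 48.8 and 39.8. The gap was narrow, from 39.3 to 39.8, and the difference was 0.57 ± 0.32 (adjusted p = 0.818 by edgeR). These 2 of 31 stand beside 0.811% of all genes without overlap and higher, and 1.43% lower.

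Msmo1 was at 79.5, 69.4, 114, 32.0 and 86.3 CPM in wild-type lung, and Rel-null lung had 179, 83.0, 120.1 and 83.1, a difference of 0.61 ± 0.33. The groups overlapped, with wild-type lung 4 lowest and Rel-null lung 7 highest, 2 of the libraries with the most genes at 0. Sc5d was at 75.8, 101, 70.6, 79.8 and 70.0 in wild-type lung, and Rel-null lung had 38.0, 60.7, 71.1 and 65.0, a difference of -0.44 ± 0.24, with 1 Rel-null library inside the wild-type range. Scd1, listed above, differed by -0.61 ± 0.44, and wild-type lung 3 at 175 CPM lay among the Rel-null values. Rel-null lung 7 alone was the lowest of the 9 lung libraries in 13 of the 31 genes and the highest in 8.

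In skin, 2 wild-type and 3 Rel-null libraries were compared, and again none of the 31 passed edgeR's test (0 of all genes did). At an unadjusted p under 0.05 there were 5, all higher in Rel-null, against 6.24% of all genes. DESeq2 called 1, Mvk, against 0.884% of all genes, and limma-voom none, against 1.83%. Of the 31, 24 were higher and 7 lower in Rel-null skin, with a median of 0.48 against 0.01 over all genes, and all 7 mevalonate genes were among the higher. Between groups of this size 10 of 31 did not overlap and were higher in Rel-null skin, against 14.8% of all genes, and none was lower, against 10.3%. These were Acat2, Mvk, Pmvk, Fdps, Msmo1, Ebp, Sc5d, Dhcr7, Stard4 and Fads1.

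Mvk, the mevalonate kinase, was at 16.5 and 13.4 CPM in wild-type skin and 50.01, 91.9 and 49.2 in Rel-null skin. All Rel-null values were higher, by 2.08 ± 0.58 (adjusted p = 0.453 by edgeR, 0.0401 by DESeq2). In lung it was at 48.5, 10.9, 27.6, 42.3 and 28.2 in wild type and 22.4, 23.3, 30.7 and 28.8 in Rel-null, so the wild-type skin values lay at the low end of the lung range. Sc5d was at 88.2 and 59.5 in wild-type skin and 127, 169 and 150.3 in Rel-null skin, a difference of 1.01 ± 0.33 (adjusted p = 0.638 by edgeR).

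Stard4 was at 39.0 and 23.0 CPM in wild-type skin and 43.5, 103 and 72.5 in Rel-null skin, a difference of 1.23 ± 0.45. Ebp was at 29.5 and 20.5 against 45.3, 102 and 63.4, a difference of 1.48 ± 0.65, and in lung at 88.5, 17.7, 42.7, 15.4 and 43.8 in wild type and 66.8, 41.8, 70.1 and 44.2 in Rel-null. Msmo1 was at 134 and 99.5 against 181, 301 and 232, a difference of 1.03 ± 0.47. In each of these 3 genes Rel-null skin 18 lay closest to wild type and the library labelled Rel-null skin 19 farthest from it.

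The library labelled Rel-null skin 19, in which Rel was as high as in wild type, was the highest of the 5 skin libraries in 23 of the 31 genes. The shallow library, wild-type skin 22, was the lowest in 25. The median over the 31 was accordingly 1.30 without wild-type skin 11, 0.13 without wild-type skin 22, and -0.14 without the libraries labelled Rel-null skin 19 and 20. Keratinocyte markers also moved with genotype in skin, with 10 of 11 tested higher in Rel-null skin and Krt5 at 413, 112 and 176 CPM in Rel-null skin against 0.381 and 0.960 in wild type. All 4 adipocyte markers tested had lower fitted values in Rel-null skin, but that of Fabp4 rests on wild-type skin 11, at 885 CPM. In wild-type skin 22 it was at 8.96, below the 29.1, 57.7 and 22.4 of Rel-null skin. Leukocyte and macrophage markers were higher in 11 of 12, summing to 32.6 and 124 CPM in wild-type skin and 127 to 191 in Rel-null skin. Proliferation markers were higher in 10 of 12, at 380.2 and 421 CPM against 507 to 794. The lung epithelium list summed to 4.16 and 5.00 CPM against 182 to 409, most of the latter from Cdh1 and Epcam, with its 4 surfactant protein genes at 0 in every skin library. None of these markers was called by edgeR. Their part in the differences of lipid genes was not tested. Scd1 was lower in Rel-null skin by -1.05 ± 0.59 (adjusted p = 0.786 by edgeR). Without wild-type skin 22 the value was -1.90, which rests on wild-type skin 11 alone, the library far above all others in Scd1. Without wild-type skin 11 the value was 1.30, which rests on wild-type skin 22 alone.

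**Figure D5:**
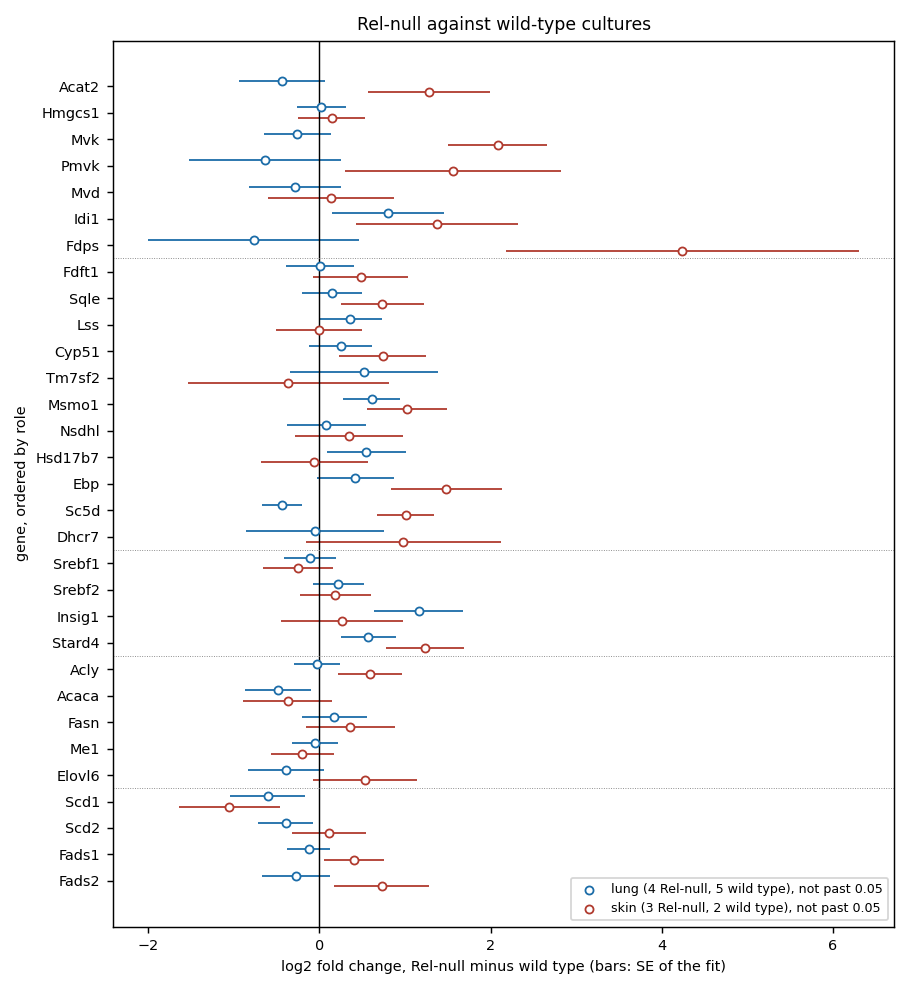
Log2 fold change, Rel-null minus wild type (x axis), of each gene (y axis, ordered by role, dotted lines between roles) in lung (blue) and skin (red), with the SE of the fit as bars. All points are open because no adjusted p was under 0.05, and Fdps, Mvk and Pmvk lie farthest apart between the tissues.

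Averaged over tissues, no gene of the 31 was called between genotypes (0 of all genes by edgeR), with 5 at an unadjusted p under 0.05 against 9.36% of all genes. These were Stard4 (0.90 ± 0.28, adjusted p = 0.383 by edgeR), Msmo1 (0.82 ± 0.29), Mvk (0.91 ± 0.34) and Ebp (0.95 ± 0.39), all higher in Rel-null, and Scd1 (-0.83 ± 0.37). DESeq2 and limma-voom called none, against 1.13% and 0.744% of all genes. The difference between the genotype effects in skin and in lung was tested as an interaction. It was called for none of the 31 (0 of all genes by edgeR), and for none by DESeq2 (0.603% of all genes) or limma-voom (1.06%). At an unadjusted p under 0.05 there were 2, against 4.67% of all genes: Sc5d (1.44 ± 0.41, adjusted p = 0.718 by edgeR) and Mvk (2.34 ± 0.69, adjusted p = 0.840 by edgeR).

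Other genes of these pathways were examined in 3 lists, and their calls averaged over genotypes stand beside the 10.4% of all genes called and 4.26% called higher in skin. Among 13 genes of SREBP control and sterol uptake, Npc1, which exports cholesterol from lysosomes, fell in skin averaged over genotypes by 0.87 ± 0.22 (adjusted p = 0.0170 by edgeR), with every skin library at 128 CPM or less and every lung library at 147 or more. Of 9 other sterol and isoprenoid genes 2 fell: Acat1, the mitochondrial thiolase (-1.005 ± 0.20, adjusted p = 0.00422 by edgeR), and Ch25h, which makes 25-hydroxycholesterol, an oxysterol that restrains SREBP processing (-1.91 ± 0.45, 0.0111). The average for Ch25h holds for wild type, at -4.10 (adjusted p = 0.00626 by edgeR), but in Rel-null cultures the tissue difference was 0.27, of opposite sign (adjusted p = 0.879). Acat1 therefore differed in the opposite direction from the cytosolic thiolase Acat2. Of 26 other fatty acid and NADPH genes, 23 were tested and 2 rose, the elongation reductase Hsd17b12 (0.98 ± 0.23, 0.0110) and the acyl-CoA synthetase Acsl4 (0.98 ± 0.25, 0.0199).

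None of these related genes was called between genotypes. In lung the smallest unadjusted p-values belonged to Ch25h (-1.33 ± 0.49), Soat1 (0.56 ± 0.25), which esterifies cholesterol, and Mylip (0.87 ± 0.39), which degrades the LDL receptor, each with an adjusted p of 0.781 by edgeR. In skin they belonged to Ch25h (3.04 ± 0.75, adjusted p = 0.369 by edgeR), the elongase Elovl7 and the sterol-regulated membrane protein Tmem97 (1.76 ± 0.58, 0.638). Ch25h was at 116, 123, 47.3, 162 and 53.6 CPM in wild-type lung, and Rel-null lung had 15.7, 37.4, 71.9 and 35.2. The levels in skin were 7.75 and 3.52 in wild type, and 21.3, 68.7 and 55.2 in Rel-null skin. In lung 3 of 4 Rel-null libraries were below every wild-type library, and in skin all 3 were above both wild-type libraries. The difference between these effects was 4.37 ± 0.89 (adjusted p = 0.236 by edgeR). Elovl7 had 0 counts in both wild-type skin libraries and 7.96, 13.0 and 18.9 CPM in Rel-null skin.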

How the data were processed

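The authors deposited raw read counts per gene for 14 libraries, each column of which matches 1 sample. Per the submitters' processing notes, FastQC 0.11.2, Trimmomatic 0.33, STAR 2.4.2a and the build GRCm38 were used. Per the labels' protocols, the library kit was directional and RNA with an integrity number under 8 was not sequenced. How reads were counted, and on which strand and annotation, is not given in the sources used. Symbols, coordinates and exon lengths came from GENCODE M21.

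Low genes were removed with filterByExpr (counts of at least 10, and 15 in total), and libraries were scaled with TMM. Tests used edgeR 4.0.16 (R 4.3.3), with a quasi-likelihood fit of 4 group means over all 14 libraries, and Benjamini-Hochberg adjustment over 16408 genes at a threshold of 0.05. Spread was estimated over all groups, since 2 wild-type skin libraries give little of their own. Log2 fold changes carry the SE of the fit, derived as the absolute log2 fold change over the square root of the quasi-likelihood F. Library values are CPM on TMM-scaled totals unless stated. TPM divides by the length of all exons. Libraries "without overlap" means that every library of a group was above every one of the other. The depth of wild-type skin 22 limits the precision of wild-type skin.

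The genes and lists were chosen with earlier results of these data known, and support nothing by themselves. Values of every library are given for Srebf1, Srebf2, Insig1 and the 5 members with the smallest unadjusted p in the lung genotype, skin genotype and averaged tissue comparisons. Related genes are named if called, and otherwise as the 3 with the smallest p. The result of 1 related gene is not reported here. Printing every library of Ch25h and Elovl7 in skin was decided after their values were seen. Alternatives were RLE, upper-quartile or no scaling factors, other filters, DESeq2 1.42.0, limma-voom 3.58.1 with quality weights, fits of only the groups compared, and fits without each library or without sets of doubtful libraries. The fit was tested on simulated data.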

Additional observations from a re-analysis of the deposited data

Results flagged for a closer look

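In each group of 4 or 5 lung libraries, the lowest or highest library was compared with the rest by Dixon's test, for each of the 31 genes in CPM. Of 62 sets of values, 5 had a library that stood apart, and chance gives about 1 in 20. All 5 were low values. Wild-type lung 4 was low in the lanosterol synthase Lss, at 10.6 CPM against 27.0 to 31.1 in the other wild-type lung libraries, and in the sterol carrier Stard4, at 19.0 against 34.5 to 39.3. Rel-null lung 7 was low in the mevalonate decarboxylase Mvd, at 5.89 against 25.1 to 28.4. These are 2 of the 4 libraries with the most expressed genes at 0 counts (5.78% and 11.5%), and the part of that in these values was not tested. Wild-type lung 1 was low in the isomerase Idi1, at 1.65 against 7.78 to 8.96, and wild-type lung 3 in Scd1, at 175 against 291 to 336.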

How the results depend on the processing

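Of the 10 genes called higher in skin averaged over genotypes, all but Cyp51 were called under every alternative that left at least 2 libraries in each group. Cyp51 was lost without wild-type lung 4, without Rel-null lung 8, 9 or 10, and without the library labelled Rel-null skin 19 or 20. Alternatives that leave 1 library in a skin group are not counted, as they cannot show whether calls hold. The number called was 12 with RLE factors, 12 with upper-quartile factors, 15 on raw totals, 12 without a filter, 14 with DESeq2 and 15 with limma-voom. It was at most 14 with 1 library left out where each group kept at least 2 libraries. Fits without wild-type skin 11, or without the libraries labelled Rel-null skin 19 and 20, leave 1 library in a skin group. No count is given for them. The share of all genes under the alternatives is not given here for calls between tissues or for libraries without overlap. These counts therefore cannot be set against all genes. In wild type the 3 calls became 5 with DESeq2 and 0 with limma-voom. Scd1 was also no longer called with any 1 of the wild-type lung libraries left out. Scd1 in wild type reversed to -0.15 without the 4 libraries with the most genes at 0. It was -0.22 without wild-type skin 11 and 2.95 without wild-type skin 22. Each of these last fits leaves 1 wild-type skin library, as does the fit without the Xist-positive libraries. No count of calls is given for them. In Rel-null the 6 calls became 11 on raw totals, 10 without a filter, 12 with DESeq2, 23 with limma-voom, and 3 to 10 with 1 library left out. Without those 4 libraries Rel-null skin holds only the libraries labelled 19 and 20, whose Rel level goes against their label. Without the libraries labelled Rel-null skin 19 and 20, Rel-null skin is library 18 alone. No count of calls is given for these fits, which cannot show whether the 6 calls hold. Between genotypes in skin the 0 calls became 1 with DESeq2. Without those 4 libraries Acat2 differed by 2.60 and Stard4 by 2.01. There wild-type skin 22 alone stands against the libraries labelled Rel-null skin 19 and 20, whose Rel level goes against their label. Its spread is assumed to be that of the other groups. Scd1 differed by -1.86 without the Xist-positive libraries and -1.90 without wild-type skin 22, and averaged over tissues by -1.23 and -1.25. In these fits wild-type skin 11 alone stands for wild-type skin, so no count of calls is given. Genes without overlap between genotypes in lung were 2, and 1 on raw totals or 4 without those 4 libraries. Between tissues they were 3, and 5 with upper-quartile factors, 7 on raw totals, 5 without those 4 libraries, 8 without the Xist-positive libraries and at most 8 with 1 library left out. The cause of these changes was not tested. Sign changes of values that were never called are not counted here. In the skin genotype comparison they reached 11 of 31 genes, without the libraries labelled Rel-null skin 19 and 20. No paired analysis was possible because the groups share no replicate numbers.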
